A study of Caenorhabditis elegans with 2 samples.

Results

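The large ribosomal subunit genes of *Caenorhabditis elegans* were taken as the protein-coding genes of the WBcel235 assembly whose symbol starts with rpl-, which gave 47 of 19973 protein-coding genes, a rule that reads the symbol alone. Their upstream regions were examined in chromatin immunoprecipitation followed by sequencing (ChIP-seq) of an eGFP-tagged LSY-2, a C2H2 zinc finger protein known for its role in the left ASE taste neuron. The worms were whole L4 larvae, mixed in sex, of strain OP240, which has the allele unc-119(ed3) on chromosome III and the transgene wgIs240 carrying the tagged lsy-2. There was 1 group of 2 biological replicates, both with this transgene and this allele, and no second condition was analysed here. All tissues were mixed and the protein was read through its tag, so a site used in few cells cannot be told apart from a weak site in many.

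The deposited lists give candidate regions for each replicate (25003 in replicate 1 and 24002 in replicate 2) and for the pooled replicates (22035), and an optimal list of 1563 peaks chosen by their irreproducible discovery rate. In practice the optimal list held the 1563 pooled candidates of highest signal, and its weakest peak had 60.3. Signal is the authors' own value of each peak, and its scale is separate in each list, so replicates are compared by rank, with rank 1 the strongest. Read numbers were not given, so the depth behind each value is unknown. A gene is called bound here when an optimal summit fell no more than 500 bp from one of its annotated starts. With 1 group and no contrast between conditions, no test was run and no p-value is given.

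The large subunit of the cytosolic ribosome joins amino acids into protein at its catalytic centre and leads the new chain out through a tunnel. It is built from ribosomal RNA and a large set of ribosomal proteins, most of them encoded in the worm by a single rpl gene. These proteins are needed in near-equal amounts in every growing cell, and their genes are among the most strongly transcribed. Many worm messenger RNAs, those of ribosomal proteins among them, receive their 5′ end from a short spliced leader RNA by trans-splicing.

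Of the 47 genes, 35 (74.5%) were bound, where 4.78% of all protein-coding genes were bound. The exact Clopper-Pearson 95% interval, 59.7 to 86.1%, treats the genes as independent draws. They are the whole set the rule gives, so the interval is a yardstick and measures no spread between replicates. The count rests on the window: within 250 bp of a start 7 rpl genes (14.9%) and 2.90% of all protein-coding genes were bound. With each peak given to the nearest start alone, 20 rpl genes (42.6%) and 3.78% of all were. In the 500 bp window, signals at the 35 genes ran from 60.3 to 7029 with a median of 281, against a median of 98.6 at the 919 other bound genes. The 3 highest signals of the whole optimal list belonged to rpl-3, rpl-20 and rpl-15, and 14 rpl genes had a peak among the first 100. A pooled candidate of any strength lay at 43 of the 47 genes, against 29.8% of all protein-coding genes. The replicates' own lists placed a candidate at 42 genes in replicate 1 and 43 in replicate 2, where the shares over all protein-coding genes were 32.1% and 31.3%.

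**Figure D1:**
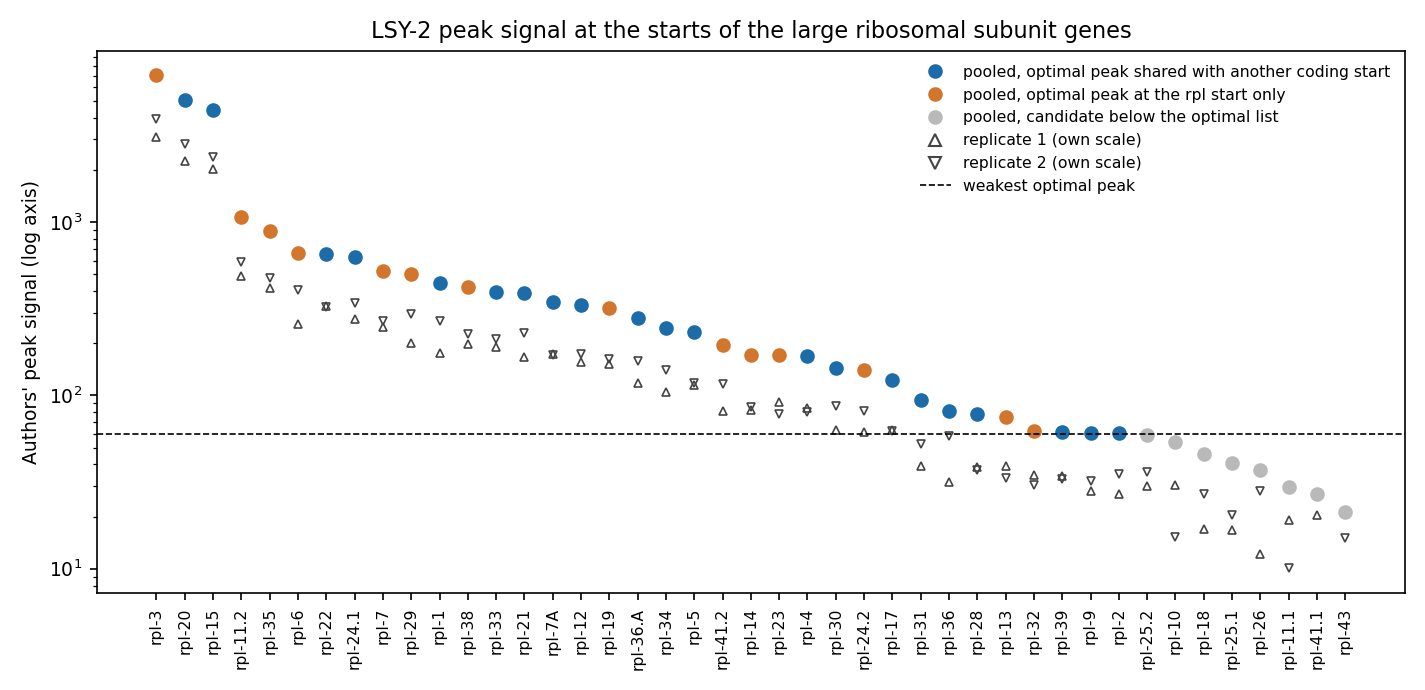
Authors' peak signal (log axis) at the 43 rpl genes with a pooled candidate within 500 bp of a start, from strongest to weakest, with the pooled value as a filled circle and the replicates' own values, on their own scales, as open triangles. The 3 strongest genes sit at 4423 or higher, and the optimal list ends at 60.3, between rpl-2 and rpl-25.2.

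The gene with the strongest peak was rpl-3 (WBGene00004414, chromosome III, 3867854 to 3869587), whose protein reaches into the catalytic centre in yeast and human ribosomes. Its signal was 7029 in the pooled list, 3100 in replicate 1 and 3946 in replicate 2, at rank 1 each time, with the summit 282 bp upstream of the start. Second was rpl-20 (WBGene00004432, chromosome IV, 4749123 to 4749778) with 5056 pooled, 2239 in replicate 1 and 2833 in replicate 2. Next was rpl-15 (WBGene00004427, chromosome IV, 653480 to 654576) with 4423 pooled, 2015 in replicate 1 and 2385 in replicate 2. The first 3 places were taken by these genes, in this order, in both replicates. The next rpl gene was far lower, at 1065 for rpl-11.2 (WBGene00004423, chromosome X), which had 486 in replicate 1 and 586 in replicate 2.

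The letters around 8 summits are shown to display a 6-letter element, and these members were picked because they hold it. They include the 4 strongest rpl peaks but pass over stronger ones than rpl-21 and rpl-34, among them rpl-35, which lacks the element. Each window is 101 bp centred on the summit, read from RefSeq's WBcel235 sequence on the strand of the rpl gene, and capitals mark ACCGTA or its reverse complement TACGGT. The windows are chrIII:3867522-3867622 (plus strand) for rpl-3, chrIV:4750015-4750115 (minus strand) for rpl-20 and chrIV:654879-654979 (minus strand) for rpl-15. They are chrX:2242922-2243022 (minus strand) for rpl-11.2, chrIII:7208047-7208147 (plus strand) for rpl-6 and chrII:5055328-5055428 (plus strand) for rpl-22. The last of this set are chrIII:8130483-8130583 (minus strand) for rpl-21 and chrIV:12268502-12268602 (plus strand) for rpl-34.
rpl-3: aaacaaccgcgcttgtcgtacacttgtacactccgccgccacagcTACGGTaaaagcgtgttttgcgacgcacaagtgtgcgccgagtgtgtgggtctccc
rpl-20: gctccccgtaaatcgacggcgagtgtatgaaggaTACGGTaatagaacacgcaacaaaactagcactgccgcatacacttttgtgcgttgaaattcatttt
rpl-15: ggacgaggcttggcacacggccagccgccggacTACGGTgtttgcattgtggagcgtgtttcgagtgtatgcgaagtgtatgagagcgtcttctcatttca
rpl-11.2: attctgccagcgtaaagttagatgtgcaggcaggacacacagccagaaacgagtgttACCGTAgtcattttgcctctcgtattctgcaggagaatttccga
rpl-6: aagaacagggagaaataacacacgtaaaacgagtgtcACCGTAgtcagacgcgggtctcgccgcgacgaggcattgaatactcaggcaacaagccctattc
rpl-22: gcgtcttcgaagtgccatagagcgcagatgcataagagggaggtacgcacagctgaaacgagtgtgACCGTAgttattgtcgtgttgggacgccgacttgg
rpl-21: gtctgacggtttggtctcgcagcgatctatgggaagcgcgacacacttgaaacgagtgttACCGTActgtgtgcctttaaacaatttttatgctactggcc
rpl-34: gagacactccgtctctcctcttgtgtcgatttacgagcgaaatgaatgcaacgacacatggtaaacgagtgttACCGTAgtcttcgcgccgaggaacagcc

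In the 3 strongest windows the element read TACGGT on the strand of the gene, and in the other 5 it read ACCGTA after the letters gagtgt and 1 further base. Those 5 are a picked set. Of the windows passed over that are stronger than rpl-21, rpl-7, rpl-38 and rpl-33 hold ACCGTA without this longer form. rpl-24.1, rpl-29 and rpl-1 hold the longer form, as do 9 of the 19 rpl windows with ACCGTA in all. The element was picked after the windows of the strongest peaks had been read, so the counts that follow describe it and test nothing. ACCGTA, on either strand, lay in 19 of the 36 summit windows of the rpl genes (52.8%; rpl-1 has a pair of peaks), against 134 of 743 windows of other peaks at protein-coding starts (18.0%). It lay in 10.5% of all 1527 other optimal windows. Equal windows centred 300 bp upstream of the 19926 other protein-coding genes that allow one held it in 3.00%, and 1 of 72 windows 500 bp to either side of the rpl summits did.

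The element was commonest at the strongest peaks, inside and outside the rpl genes. It was picked from windows of the strongest peaks, so that choice favours this contrast, and the values below only describe it. Of the 14 rpl peaks among the first 100, 13 held ACCGTA, the exception being rpl-35, and so did 54 of the other 86 peaks of that rank (62.8%). Among the 18 stronger rpl peaks 14 held it and among the 18 weaker ones 5. The 19 windows with it had a median signal of 444 and none was under 123, whereas the 17 without it had a median of 94.2 and reached 885 at rpl-35. When present, its centre was a median of 13.5 bp from the summit, and it pointed the way of the rpl gene in 14 windows and the opposite way in 5.

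A longer form, GAGTGT followed by 1 base of any kind and then ACCGTA, is contained in the counts of ACCGTA. It was found in 9 rpl windows, those of rpl-11.2, rpl-6, rpl-22, rpl-24.1, rpl-29, rpl-1, rpl-21, rpl-19 and rpl-34. It was found in 16 of the 743 windows of other start peaks (2.15%), in no further optimal window, and in 7 of the 19926 upstream windows (0.0351%). Among the first 100 peaks, 7 of 14 rpl peaks and 10 of the other 86 (11.6%) held it. Among those 16, the small-subunit genes rps-23, rps-13, rps-29 and rps-7 had a start within 500 bp of the summit, at signals of 843, 431, 365 and 121. The rest included ndk-1 at 708, which encodes a nucleoside diphosphate kinase, and the translocon gene sec-61.A at 479.

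A second element, GGTCTCG or CGAGACC, was likewise picked after the windows were read. Its letters can overlap those of TACGGT or ACCGTA, but did not in the 9 rpl windows that hold both elements. Overlap in other windows was not examined. The second element lay in 14 of 36 rpl windows (38.9%), against 67 of 743 windows of other start peaks (9.02%) and 1.47% of upstream windows. Among the first 100 peaks the shares were closer, with 5 of 14 rpl peaks (35.7%) against 20 of the other 86 (23.3%). Of the rpl windows, 9 held both elements, 10 ACCGTA alone, 5 GGTCTCG alone and 12 neither. Those with GGTCTCG alone had signals from 61.4 to 196, so this element also occurred at weak peaks. Windows with it in capitals are shown for rpl-38 at chrV:15511759-15511859 (plus strand), which also holds ACCGTA in lower case, and for rpl-39 at chrV:7776313-7776413 (minus strand).
rpl-38: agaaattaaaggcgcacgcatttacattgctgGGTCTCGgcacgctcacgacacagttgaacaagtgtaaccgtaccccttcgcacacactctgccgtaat
rpl-39: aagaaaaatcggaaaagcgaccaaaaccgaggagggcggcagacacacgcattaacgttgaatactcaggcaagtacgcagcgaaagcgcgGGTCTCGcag

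Windows with neither element are shown in lower case throughout for a strong and a weak member. That of rpl-7A is chrIV:4390622-4390722 (minus strand), with a signal of 347, and that of rpl-2 is chrV:20479220-20479320 (plus strand), with 60.3.
rpl-7A: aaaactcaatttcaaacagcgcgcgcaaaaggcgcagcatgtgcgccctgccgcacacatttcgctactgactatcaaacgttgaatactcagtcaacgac
rpl-2: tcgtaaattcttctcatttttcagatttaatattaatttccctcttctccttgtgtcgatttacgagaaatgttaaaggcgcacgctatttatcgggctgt

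**Figure D2:**
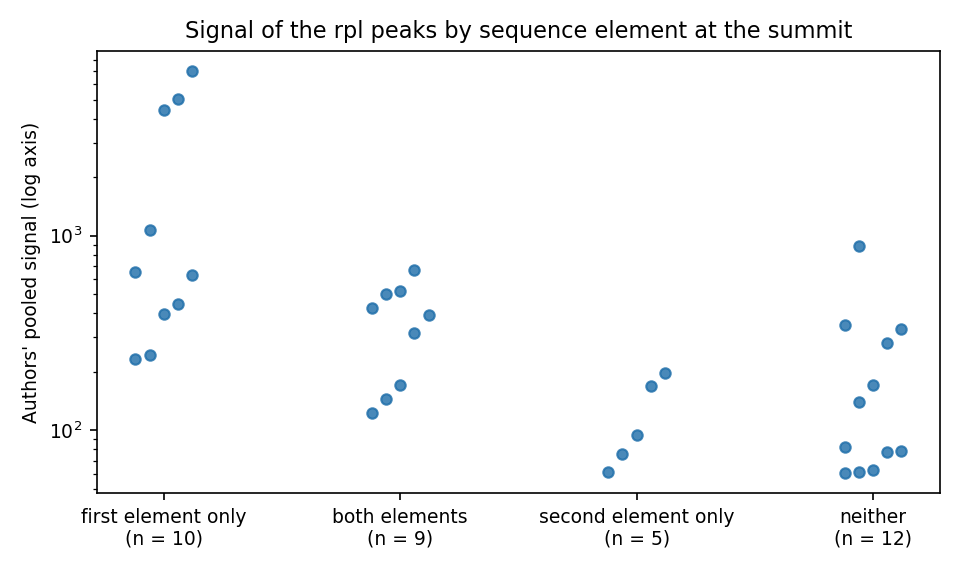
Authors' pooled signal (log axis) of the 36 optimal peaks at rpl starts, each a point, by the elements in the 101 bp summit window, where the first is ACCGTA and the second GGTCTCG on either strand. Windows with ACCGTA alone had a median of 642 and those with both 392, against 94.2 with GGTCTCG alone and 111 with neither. ACCGTA was picked from windows of the strongest peaks, which favours this contrast.

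A further pair of elements, each counted on both strands, gave shares closer to those elsewhere or below them. GAGAGA or TCTCTC lay in 3 of 36 rpl windows (8.33%), against 25% of windows of other start peaks and 6.12% of upstream windows. ACGCAG or CTGCGT lay in 6 (16.7%), against 20.2% of windows of other start peaks and 2.45% of upstream windows. The share of G and C was a median of 50% in rpl windows (35.6 to 60.4%), 48.5% at other start peaks and 33.7% in upstream windows.

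Genes for proteins around the catalytic centre and along the tunnel, roles known from yeast and human ribosomes, were bound in 5 of 6 cases. Over all rpl genes 35 of 47 were. The 5 spanned the whole range of signal. After rpl-3 came rpl-4, whose protein lines the tunnel, with 168 in the pooled list, 84.3 in replicate 1 and 80.2 in replicate 2. The tunnel gene rpl-17 had 123 pooled, 63.0 in replicate 1 and 62.4 in replicate 2. At the other end, rpl-39, another tunnel gene, had 61.4 pooled, and rpl-2, whose protein lies near the catalytic centre, had 60.3. Those last values lay at ranks 1505 and 1558 of the 1563 optimal peaks, and in the replicates at 34.4 and 33.0 for rpl-39 and at 27.1 and 35.3 for rpl-2. The sixth, rpl-10, whose protein completes the catalytic side late in assembly, was not bound. Its best candidate had a pooled signal of 53.9 (rank 1905), with rank 1552 in replicate 1 but 8659 in replicate 2.

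The proteins that bind 5S ribosomal RNA come from rpl-5 and the rpl-11 pair, and here the paralogs differed widely. The X-linked rpl-11.2 was 19th of the optimal list at 1065, with its summit 354 bp upstream, and it ranked 20th in replicate 1 and 21st in replicate 2. Its paralog rpl-11.1 on chromosome V had only a candidate of 29.7 (rank 6559), at rank 4356 in replicate 1 and 20631 in replicate 2. rpl-5 had 231 pooled, 115 in replicate 1 and 119 in replicate 2, with a summit 423 bp upstream.

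Both rpl genes that belong to the stalks were bound, beside 35 of 47 over all rpl genes. rpl-1, for the mobile stalk at the exit site of transfer RNA, had a pair of optimal peaks, 226 and 425 bp upstream, with signals of 444 and 77.9. The stronger was at rank 89 in replicate 1 and 64 in replicate 2, and the weaker at rank 545 in replicate 1 and 2829 in replicate 2. rpl-12, for the base of the stalk that binds elongation factors, had 332 pooled, 156 in replicate 1 and 175 in replicate 2, and its summit was the closest among bound rpl genes to their own start, at 38 bp.

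Genes for proteins around the tunnel exit were bound in 3 of 6 cases. The roles named here hold 6 genes or fewer each, too few to show a difference from the other 30 rpl genes, of which 23 were bound. rpl-35 had 885 pooled, 417 in replicate 1 and 475 in replicate 2, with the farthest summit of the bound rpl genes, 449 bp upstream. rpl-19 had 318 pooled, 152 in replicate 1 and 163 in replicate 2. rpl-31 had 94.2, at rank 953 in replicate 1 and 734 in replicate 2. The unbound ones were rpl-26 and both genes of the rpl-25 pair. The best candidate of rpl-25.2, at 59.1 (rank 1615), was just under the end of the optimal list, and rpl-2 at 60.3 was just inside it. The candidate of rpl-25.1 had 40.7 and lay 453 bp downstream of its start, and that of rpl-26 had 37.0.

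The remaining paralog pairs differed as well. rpl-24.1, for a protein at the interface of the subunits, had 631 pooled, 277 in replicate 1 and 342 in replicate 2. rpl-24.2, whose relative in yeast acts in subunit assembly, had 140 pooled, 61.2 in replicate 1 and 80.9 in replicate 2. The neighbours rpl-41.1 and rpl-41.2 lie on the same strand of chromosome I with 699 bp between them. rpl-41.2 was bound at 196, and rpl-41.1 had a candidate of 26.9 (rank 8271) in the pooled list, one in replicate 1 and none in replicate 2. In each of the pairs rpl-11, rpl-24 and rpl-41, 1 member was thus the higher in every list that had both, while both rpl-25 genes fell outside the optimal list.

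Further strong members were rpl-6, rpl-22, rpl-7, rpl-29 and rpl-38. rpl-6 had 663 pooled, 260 in replicate 1 and 406 in replicate 2, and rpl-22 had 652 pooled, 329 in replicate 1 and 325 in replicate 2. rpl-7 had 520 pooled, 247 in replicate 1 and 269 in replicate 2. These values put each of them within the first 63 candidates of both replicates. rpl-29 had 499 pooled, 201 in replicate 1 and 296 in replicate 2, and rpl-38 had 423 pooled, 199 in replicate 1 and 226 in replicate 2. In mice, the counterpart of rpl-38 is known for its part in the translation of Hox messages. Of the others bound, rpl-33, rpl-21, rpl-7A, rpl-36.A and rpl-34 had pooled signals between 245 and 398, and rpl-14, rpl-23 and rpl-30 between 144 and 172. The signals of rpl-36, rpl-28, rpl-13, rpl-32 and rpl-9 lay between 60.9 and 81.7. rpl-36 and rpl-36.A share a number but are not counted here as a paralog pair. rpl-36.A had 281 pooled, 118 in replicate 1 and 158 in replicate 2, where rpl-36 had 81.7, 31.6 and 58.5 in the same lists. rpl-9, among the weakest, had 28.1 in replicate 1 (rank 1818) and 32.3 in replicate 2 (rank 1709).

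Every one of the 35 bound genes had a candidate overlapping its strongest peak in both replicates. Nearly all other optimal peaks had one in both as well, so this does not set the rpl genes apart. Their ranks ran from 1 to 1960 in replicate 1, with a median of 154, and from 1 to 1928 in replicate 2, with a median of 136. All 14 rpl genes among the first 100 pooled peaks were among the first 100 of both replicates, as were most of the other peaks of that rank. Across the 35 genes the ranks had a Spearman correlation of 0.975, given as a description and with no test. Of the 36 peaks, 30 (83.3%) lay within the strongest 1563 candidates of both replicates, against 67.9% of all optimal peaks. The rpl peaks are also stronger, with a median of 281 at the bound genes against 89.8 over the optimal list. The part of signal in that share was not tested. The summits of the replicates were a median of 14 bp apart and at most 89 bp, and 27 of 35 were within 30 bp. Neither these distances nor the correlation was set beside those of other optimal peaks.

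**Figure D3:**
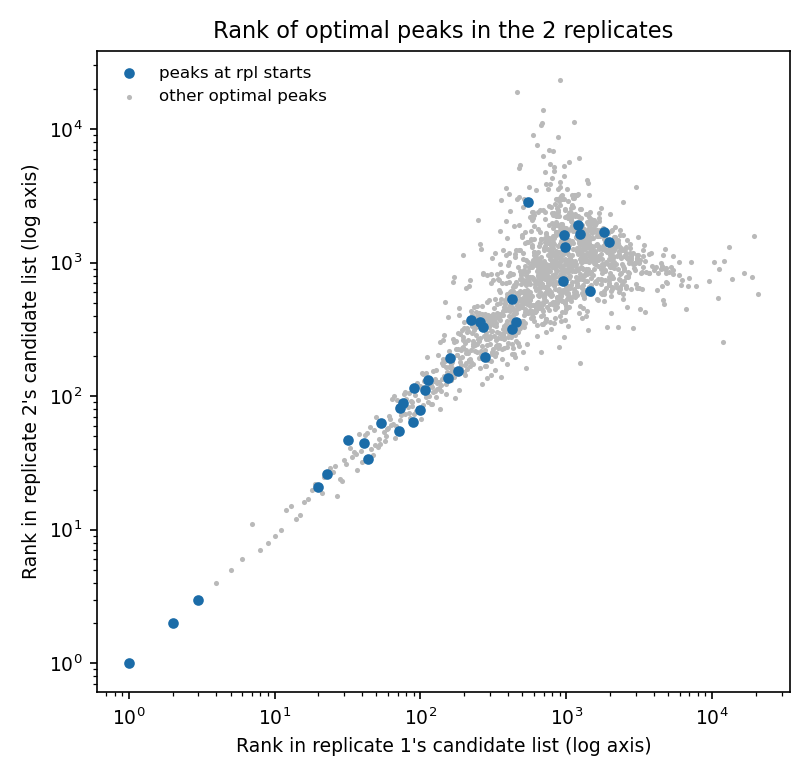
Rank of each optimal peak in the candidate lists of replicate 1 and replicate 2 (log axes), with the 36 peaks at rpl starts in blue and the other optimal peaks in grey. The rpl peaks hold ranks 1 to 3 in both lists and their strongest 14 lie close to the diagonal, while ranks beyond 1000 scatter more widely.

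Summits lay upstream of the nearest annotated start at all 35 bound genes, at a median of 296 bp with quartiles of 263 and 366.5 bp. rpl-19 has 2 annotated starts 612 bp apart, and its summit lies between them, downstream of the first. At the 919 other bound genes the median was 196 bp upstream, with quartiles of 101 and 297 bp. Only rpl-12 at 38 bp, rpl-7A at 82 bp and rpl-24.2 at 171 bp had a summit less than 200 bp upstream.

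An annotated start that marks a trans-splice site lies downstream of the place where transcription begins, so the letters before the starts were counted. A start directly after TTTCAG, the usual end of a worm intron, was annotated for 25 of 47 rpl genes (53.2%), against 16.6% of other protein-coding genes. A start directly after AG was annotated for 41 (87.2%), against 36.0%. These counts took in all genes, bound or not, and any annotated start of a gene, whereas the distances above cover bound genes alone. The part of these starts in the longer distances was not tested.

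**Figure D4:**
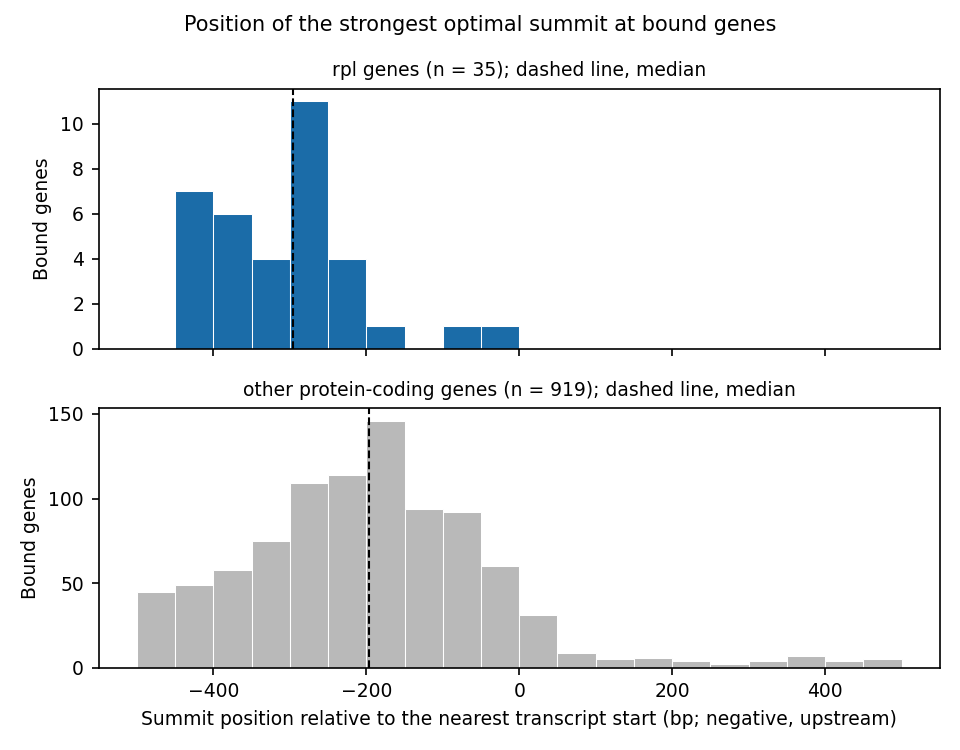
Number of bound genes by the position of the strongest optimal summit relative to the nearest transcript start (bp, negative upstream), for the 35 rpl genes above and the 919 other protein-coding genes below, with medians as dashed lines. The rpl summits have a median 296 bp upstream and none lies downstream, and the other genes have a median 196 bp upstream.

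Many rpl peaks lay between divergent genes. At 21 of the 35 bound genes (60.0%) the summit was also within 500 bp of the start of another protein-coding gene, against 42.3% of the other bound genes, and each of these partners lay on the opposite strand. No peak was shared by 2 rpl genes. An upstream neighbour on the opposite strand was found for 24 of the 35 (68.6%) and for 69.9% of the other bound genes, so in this the rpl genes stood close to the rest. The gap to the upstream neighbour on either strand had a median of 599 bp at bound rpl genes and 597 bp at other bound genes. Genes that shared a peak had a median signal of 245. The 14 genes that shared none with another protein-coding start, led by rpl-3, had 370.5. Starts of genes that are not protein-coding were left out of this division. Summits at rpl-11.2 and rpl-7, both among the 14, each lay within 500 bp of starts of 2 such genes. Summits at some of the sharing genes also lay near such starts.

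Several partners also act in translation. The peak of rpl-24.1 lay 246 bp upstream of it and 364 bp upstream of rps-10, those of rpl-36 and rpl-39 were shared with rps-14 and rps-30, and each rps gene encodes a small-subunit protein. rpl-28 shared its peak (78.3) with mrpl-49, for a mitochondrial ribosomal protein, rpl-9 (60.9) with the ribosome biogenesis gene lpd-7, and rpl-30 (144) with the poly(A)-binding protein gene pab-1. In that last region the summit was 400 bp upstream of rpl-30 and 22 bp downstream of the pab-1 start.

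Other partners have different roles. The peak at 5056 lay 287 bp upstream of rpl-20 and 175 bp upstream of Y17G9B.5, and that at 4423 lay 353 bp upstream of rpl-15 and 461 bp upstream of K11H12.8. rpl-22 shared with ify-1, for the securin that guards chromosome separation, rpl-12 with the DREAM complex gene lin-54, and rpl-36.A with nuo-1, for a subunit of respiratory complex I. rpl-5 shared with the cuticle collagen gene col-38, rpl-2 with calf-1, rpl-7A with set-21, rpl-33 with farl-11, rpl-34 with ppm-1.H, rpl-17 with aps-3 and rpl-31 with sac-2. The partners of rpl-1, rpl-21 and rpl-4 were Y71F9AL.9, C14B9.10 and B0041.8. Which gene of such a pair a peak belongs to cannot be told apart from position alone.

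Of the 12 unbound genes, 3 lay close downstream of a gene on the same strand, the arrangement of worm operons. rpl-25.1 starts 97 bp after glit-1, rpl-16 starts 105 bp after lias-1 and rpl-27 starts 119 bp after C53H9.2. The start of glit-1 had an optimal peak of 407, which is 3084 bp upstream of rpl-25.1. This peak also lay within 500 bp of the start of dnj-14. The start of lias-1 had one of 169, which is 1786 bp upstream of rpl-16. C53H9.2 had only a candidate of 30.8. None of the 35 bound rpl genes had a same-strand neighbour within 150 bp, and the closest was 364 bp away, upstream of rpl-19. Over all protein-coding genes, 1.64% of the 2140 with such a close neighbour were bound. Whether these genes are transcribed together was not tested.

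The other unbound genes had weak candidates or none. rpl-18 had 45.7 in the pooled list, with rank 5874 in replicate 1 and 2403 in replicate 2, and rpl-43 had 21.1 and no candidate in replicate 1. The closest optimal summit to rpl-43 was 748 bp upstream, with a signal of 402, outside the 500 bp limit and within it for the divergent gene Y48B6A.1. rpl-16 had a candidate in replicate 2 alone (rank 13412). rpl-27, rpl-37 and rpl-42 had none in any list. The closest optimal summit to rpl-27 was 722 bp downstream of its start, with a signal of 555. It lay within 500 bp of the starts of C53H9.4 and egl-30. rpl-37 lies inside the gene pitp-1, which runs on the opposite strand. Among the 12 unbound genes, 6 had a candidate in both replicates and in the pooled list.

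Bound rpl genes were found on all 6 chromosomes, with 12 of 15 on I, 5 of 9 on II, 7 of 9 on III, 6 of 7 on IV, 4 of 5 on V and 1 of 2 on X. The shares of all protein-coding genes bound were 7.09% on I, 4.73% on II, 7.23% on III, 4.79% on IV, 2.62% on V and 3.95% on X. The strongest rpl genes of I, II and V were rpl-24.1, rpl-22 and rpl-38.

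Set beside the rest of the translation machinery, the small subunit stood closest. In the lists compared, rps-10, rps-14, rps-30, mrpl-49, lpd-7 and pab-1 were bound through a peak shared with an rpl gene. Of 31 rps genes 23 (74.2%) were bound, with a median signal of 204 and a median summit 273 bp upstream, led by rps-1 (3828), rps-20 (1532) and rps-26 (941). Of 41 mrpl genes, for the large subunit of the mitochondrial ribosome, 4 (9.76%) were bound, with mrpl-55 (111), mrpl-28 (101) and mrpl-17 (88.8) the strongest. Elongation and initiation factor genes were bound in 14 of 32 cases (43.8%), led by eef-2 (1085), eef-1A.1 (676) and iff-2 (532). Ribosome biogenesis genes were bound in 5 of 23 cases (21.7%), led by nog-1 (345), the fibrillarin gene fib-1 (234) and nol-10 (97.4). Among 4 further genes for cytosolic large-subunit proteins without an rpl- symbol, ubq-2, for a ubiquitin fused to a ribosomal protein, was bound at 1032, and the stalk genes rla-0, rla-1 and rla-2 were not.

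**Figure D5:**
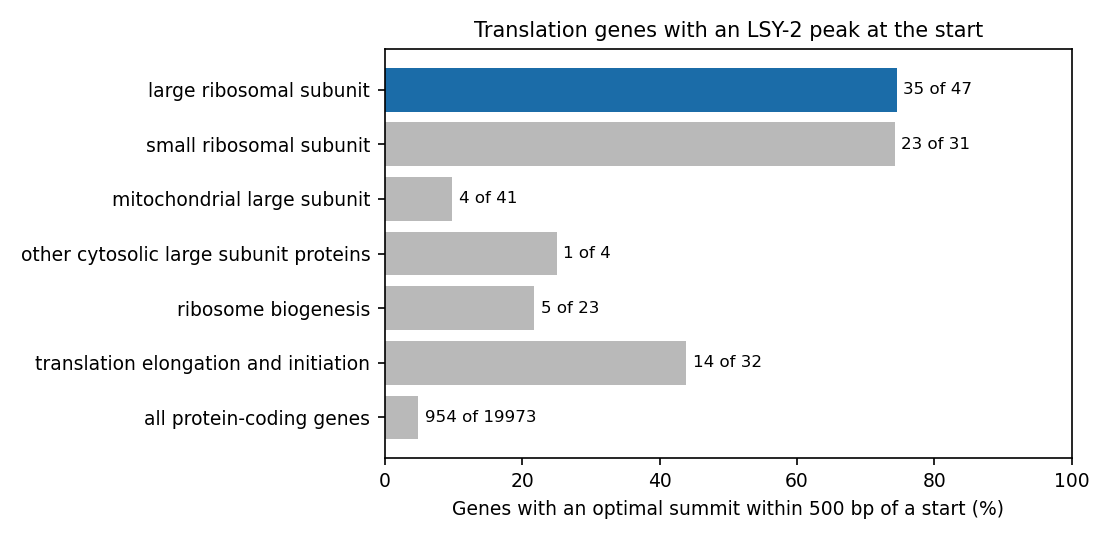
Share of genes with an optimal summit within 500 bp of a start, in %, with the counts beside each bar, for the rpl genes, 5 other lists of translation genes and all protein-coding genes. The rpl genes (35 of 47) and the rps genes (23 of 31) have the longest bars, and all protein-coding genes (954 of 19973) the shortest. A peak shared by genes of different lists counts in each.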

How the data were processed

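ChIP-seq peak lists of eGFP-tagged LSY-2 in whole L4 larvae (1 group, 2 biological replicates by the labels) were used as deposited on the ce11 build. Per the deposited text listings, candidate lists derive from immunoprecipitation and control alignments, and the optimal list from the pooled and replicate candidates. The aligner, the peak caller and the threshold are not given in the sources used here, and depth is unknown. The deposited signal is the authors' own value, on a separate scale in each list. In the pooled list, the deposited −log10 q-value of all 35 strongest rpl peaks was 3.53, the highest there, so it did not rank peaks. The ce10 lists were not used. ce11 is the WBcel235 assembly, so Ensembl gave genes and RefSeq the sequence, and coordinates are 1-based.

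Summits were assigned to every protein-coding gene with a transcript start within 500 bp, using starts of protein-coding transcripts. A replicate candidate matched an optimal peak when it overlapped by at least 1 bp, the nearest summit being taken. Scripts ran in Python 3.11.15, and the assignment was tested on simulated data. Members, gene lists, roles and tests were chosen with earlier results of these data known. The elements centred on ACCGTA and GGTCTCG, the counts of letters before starts and the limit of 150 bp for close neighbours were added after these files were seen. Values were given in full for the 12 strongest members, numbered pairs, the 3 weakest bound members and shared peaks, and lists by up to 3 bound genes. The peak shown for each gene is its strongest.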

Additional observations from a re-analysis of the deposited data

How the results depend on the processing

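Of 62 alternatives, 36 left the value within its limits and 26 moved it. The limits were 1.5 times for counts, the exact 95% interval for shares and the SD between replicates for medians. Counts, shares and signals cannot change sign, so a reversal could show only in the median position, which stayed upstream throughout. The SD comes from 2 values, 1 per replicate: 22.8 for signal, on the replicates' own scales, and 1.41 bp for position. For medians the limit is therefore rough. The ACCGTA and GGTCTCG counts and their alternatives were chosen after seeing the data. A window of 250 bp changed most, since most rpl summits lie farther from the start: 7 rpl genes (14.9%) were then bound, at a median signal of 347 and 226 bp upstream (-226 bp), 2 peaks were shared, and 2.90% of all protein-coding genes were bound. With each peak given to the nearest start alone, 20 rpl genes (42.6%) were bound at a median signal of 407, and 3.78% of all genes. With the 781 strongest peaks the rpl share was 59.6%, the median signal 369, the share of all genes 2.76% and the ACGCAG count 3. The share of all genes was 6.19% with 1000 bp to either side, 5.79% with 1000 bp upstream and 200 bp downstream (where the median position was -301 bp), 4.42% with the most upstream start alone and 5.24% with peak intervals. Among the 100 strongest candidates of each replicate were 14 of the 36 rpl peaks. GAGAGA was in 8 rpl windows with 100 bp to either side of the summit and in 1 with 25 bp.

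With as many of the strongest candidates of a single replicate as the optimal list holds, 32 to 34 rpl genes were bound (68.1 to 72.3%) beside 4.55 to 4.67% of all genes, and 20 to 21 peaks were shared. The median position was then -310 to -308 bp. The median signal was 135 to 167, on those lists' own scales, which cannot be set against the pooled 281. No paired analysis was possible because there is 1 group. Depth is unknown and limits what a missing candidate can show.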
